A study of Daphnia magna with 20 samples.

Results

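Heat shock proteins, molecular chaperones and prolyl isomerases were examined in whole water fleas (Daphnia magna) exposed to plastic or silica particles. Members were the names of the deposited table that contain heat shock, chaperon, dnaj, t-complex protein, peptidyl-prolyl cis-trans isomerase or protein disulfide. This gave 76 of 7784 names: 20 by heat shock, 18 by chaperon, 5 by dnaj, 11 by t-complex protein, 21 by the prolyl isomerase wording and 1 by protein disulfide. One of the 11, t-complex protein 11 protein 1, met the rule by wording alone and is no subunit of the chaperonin.

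Chaperones bind unfolded or partly folded proteins and help them to fold, to assemble into complexes or to stay in solution. Hsp70 works with J-domain proteins, which deliver substrates, and with nucleotide exchange factors, which release them, while Hsp90 completes the folding of kinases and receptors. The T-complex chaperonin is a double ring that folds actin and tubulin, and prolyl and disulfide isomerases speed slow steps of folding. Many of these genes are induced by heat and other stress in animals, crustaceans included, and daphnids are often used to measure such responses.

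The 20 RNA libraries fell into 4 groups of 5, each library made from pooled whole animals after an exposure of 21 days. The nano_high group received ethylene acrylic acid copolymer at 2.3e12 particles per litre, the nano_low group the same copolymer at 2.3e11 particles per litre, and the silica group fumed silica at 2.3e12, for which the sources used here give no volume. The control group received the vehicle. No allele, transgene or strain difference separates the groups. The labels call the animals neonates, although the protocol runs for the whole exposure, so their age when RNA was taken is unclear, and the number of animals per pool is not stated either. Nothing says that the 5 samples of a group were separate cultures, so a p-value here reflects only how far these samples varied, and that variation may be technical. In whole-animal RNA, fewer cells of a type and less RNA per cell cannot be told apart.

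Library totals ran from 39087926 to 95906850 counts in nano_high, from 9689087 to 40227294 in nano_low, from 7912464 to 54862348 in silica and from 11918454 to 26562291 in control, so every nano_high library was deeper than every control library. Marker sums for cuticle, collagen, yolk, eye, muscle and hemoglobin genes were above 0 in all 20 libraries, as whole animals would give. The collagen alpha sum ran from 2135.6 to 16235.1 CPM, and the 5 libraries with the lowest sums were nano_high 4 and 5, nano_low 1 and control 4 and 5. The same 5 libraries had the lowest values on the first principal component, which held 38.9% of the variance of all names.

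Values are CPM, counts per 1000000 of the scaled library total, and means are given ± SD with n = 5 libraries per group. Since CPM are not divided by gene length, they compare libraries and not genes. Adjusted p-values come from edgeR's quasi-likelihood test, adjusted by Benjamini-Hochberg across all 7564 names tested, and a name under 0.05 is called. Of the 76 members, 74 could be tested. The exceptions were heat shock kda protein cognate/arp2_g4881, listed at 0 in all 20 libraries, and peptidyl-prolyl cis-trans isomerase f/arp2_g2151, which reached a value of 1 in 3 libraries.

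Against control, 6 of the 74 members were called in nano_high, 1 higher and 5 lower, which is 8.11% of the members beside 10.1% of all names (5.17% higher and 4.89% lower). A single member, heat shock 70 kda protein 4l, rose. Those that fell were the prolyl isomerases fkbp14 and 1, tubulin-specific chaperone cofactor e protein, a proteasome assembly chaperone and a bag family molecular chaperone regulator. In nano_low, 0 members were called by edgeR's quasi-likelihood test, beside 0.621% of all names. At an unadjusted p under 0.05 there were 9 members (12.2%), beside 14.1% of all names, and DESeq2 called 2, beside 3.07% of the names it tested. In silica, 0 members were called by edgeR's test, beside 0.701% of all names. At an unadjusted p under 0.05 there were 18 members (24.3%), beside 23.2% of all names, and DESeq2 called 5, beside 5.69% of the names it tested. The members' median log2 fold change was -0.11 in nano_high, beside 0.018 over all names, -0.10 in nano_low, beside 0.0099, and -0.12 in silica, beside 0.025. In nano_high, 47 of the 74 log2 fold changes were negative, in nano_low 49 and in silica 51. Over all 7564 names tested, 3590 were negative in nano_high, 3688 in nano_low and 3565 in silica. The 3 exposures were all set against the same 5 control libraries.

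**Figure D1:**
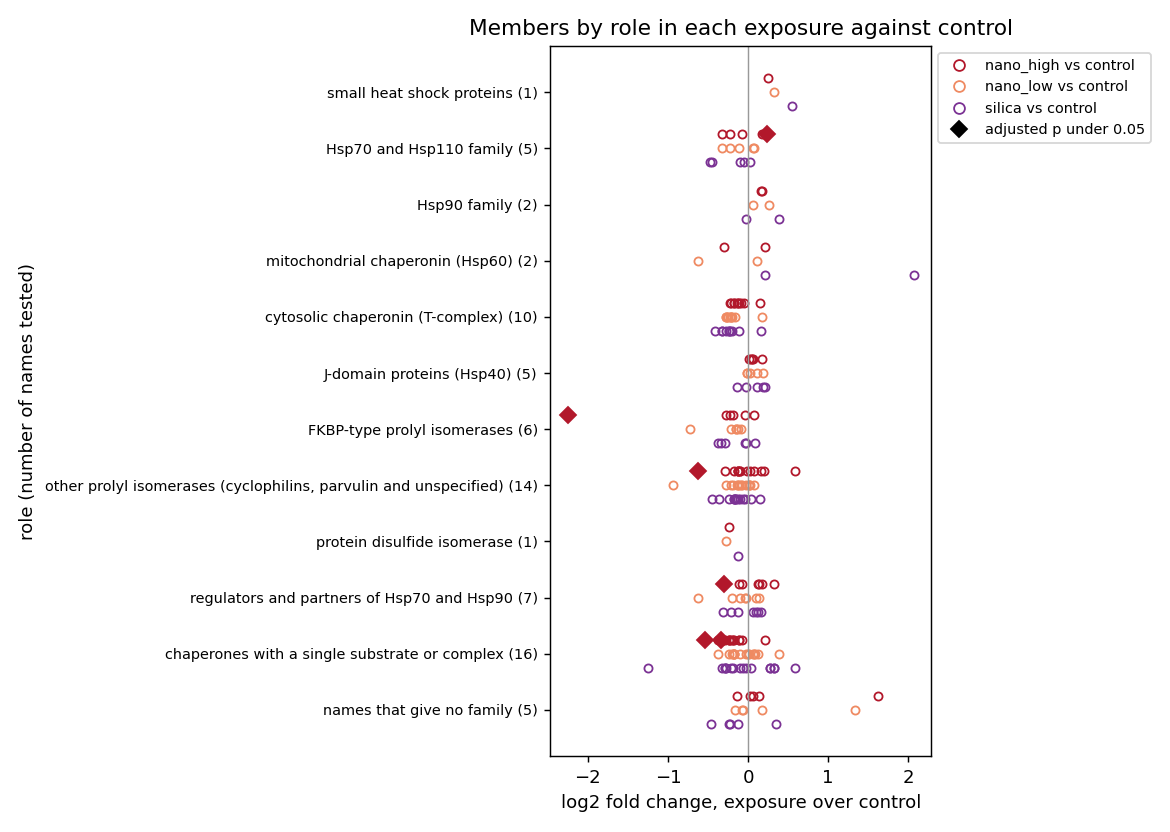
Log2 fold change of the 74 tested members against control (horizontal axis), grouped by role (vertical axis, with the number of names tested), in nano_high, nano_low and silica. Filled diamonds mark the 6 members called in nano_high, with fkbp14 farthest left at -2.25, and no member was called in nano_low or silica.

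The groups of nano_high and control did not overlap for 10 members, 1 higher and 9 lower, beside 8.8% of all names without overlap (4.02% higher and 4.79% lower). For nano_low and control this held for 0 members, beside 2.59% of all names, and for silica and control for 7 members, all lower, beside 8.69% of all names (5.17% lower). Together the members made up between 1.22% and 3.09% of each library's counts. Without fkbp14 that share narrowed to between 1.12% and 1.54%. The median SD of log2 CPM over the 20 libraries was 0.233 for the members and 0.305 for all names.

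Of the Hsp90, Hsp60, J-domain and small heat shock protein names, none was called in any exposure against control by edgeR's test, none had an unadjusted p under 0.05, and DESeq2 called none of them. The small heat shock protein of the table, heat shock protein beta-1, belongs to the family that holds unfolding proteins in solution without ATP. It had 317.9, 215.2, 366.7, 115.9 and 115.5 CPM in nano_high, 95.6, 314.3, 229.8, 357.6 and 202.6 in nano_low, 305.2, 298.8, 257.0, 261.7 and 268.9 in silica, and 274.3, 190.1, 280.5, 103.1 and 104.9 in control. The ranges of nano_high, nano_low and control covered each other, whereas the silica libraries lay close together within the upper part of that range. The log2 fold change against control was 0.25 ± 0.37 (SE) in nano_high (adjusted p = 0.736 in edgeR's test), 0.33 ± 0.37 in nano_low (0.698) and 0.55 ± 0.37 in silica (0.355).

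The low values of heat shock protein beta-1, from 95.6 to 115.9 CPM, were those of nano_high 4 and 5, nano_low 1 and control 4 and 5. These are the libraries with the 5 lowest collagen sums, from 2135.6 to 3882.4 CPM, against 4035.9 to 16235.1 in the other 15 libraries. Heat shock protein 75 kda, the mitochondrial Hsp90 known in mammals as TRAP1, was also lowest in these 5 libraries, with 77.4 to 98.5 CPM against 135.8 to 187.6 in the others. The name chaperone activity of bc1 complex, mitochondrial, had 23.7 to 28.6 CPM there and 36.9 to 73.9 elsewhere. The part of the collagen difference in these values was not tested.

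Hsp70 is the central ATP-driven chaperone of the cell, and the cognate form is made without stress. Heat shock 70 kda protein cognate had 3708.8, 3333.3, 3889.1, 2623.5 and 3158.6 CPM in nano_high and 3178.1, 2897.1, 3362.3, 2722.6 and 2614.8 in control. Nano_low averaged 3113 ± 282 CPM and silica 3005 ± 241, both means within the control range. Nano_low 2 (3440.0 CPM) and nano_low 4 (3376.8 CPM) lay above all control libraries. The nano_high and control ranges overlapped, and the log2 fold change was 0.18 ± 0.11 (SE), adjusted p = 0.33 in edgeR's test. Hsp90-alpha, the cytosolic Hsp90, averaged 1308 ± 144 CPM in nano_high, 1221 ± 84.3 in nano_low, 1149 ± 129 in silica and 1173 ± 85.3 in control. Adjusted p against control was 0.33 in nano_high, 0.804 in nano_low and 0.853 in silica, and the ranges overlapped in each case. The mitochondrial 60 kda chaperonin averaged 559 ± 135 CPM in nano_high, 521 ± 70.5 in nano_low, 556 ± 90.2 in silica and 482 ± 141 in control.

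**Figure D2:**
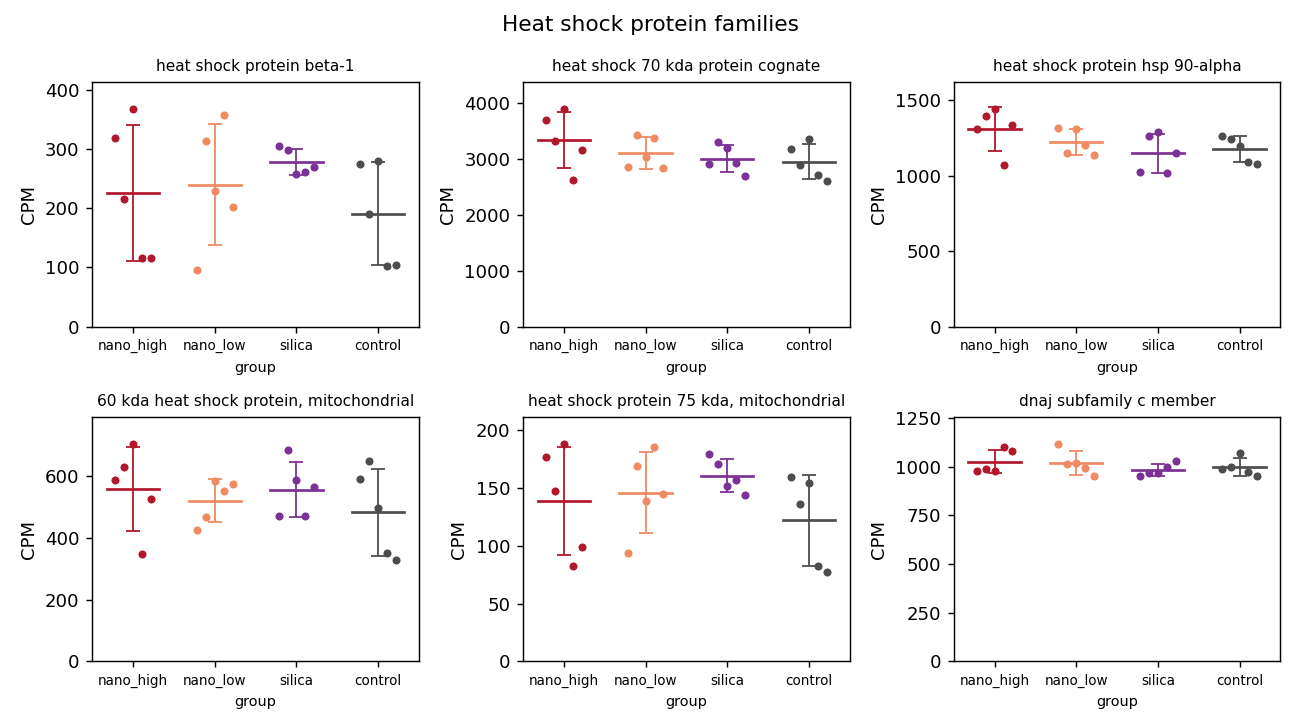
CPM (vertical axes, from 0) of 6 members of the heat shock families in the 4 groups, with points for libraries, lines for means and bars for SD (n = 5). None was called against control, and heat shock protein beta-1, the 60 kda protein and the 75 kda protein each have libraries set apart at the low end in nano_high and control.

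Heat shock 70 kda protein 4l was the only member called higher against control. In mammals it belongs to the Hsp110 family, which releases nucleotide from Hsp70. It had 233.6, 240.8, 230.5, 206.0 and 245.8 CPM in nano_high and 193.3, 200.4, 185.9, 195.5 and 205.6 in control. The lowest nano_high library lay just above the highest control library, so the groups did not overlap. The log2 fold change was 0.24 ± 0.073 (SE), adjusted p = 0.0436 in edgeR's quasi-likelihood test, a fold of 1.18. The call was lost in 9 of the 10 fits that each left out 1 of these libraries, with adjusted p-values from 0.0222 to 0.102 and log2 fold changes from 0.22 to 0.27, and the fit without nano_high 4 kept it. Nano_low, with 219.5, 198.3, 206.4, 210.2 and 192.6 CPM, overlapped control at a log2 fold change of 0.067 (95% interval -0.076 to 0.21). Silica, with 179.9, 197.6, 210.6, 191.8 and 167.2 CPM, overlapped it at -0.05 (-0.19 to 0.092).

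Of the other Hsp70-type names, heat shock 70 kda protein 12b had 110.0 to 136.0 CPM in silica and 151.3 to 198.6 in control, without overlap. Its log2 fold change of -0.45 was not called, adjusted p = 0.104 in edgeR's test, and DESeq2 did call it. All 5 J-domain names stayed close to control, with log2 fold changes from 0.01 to 0.18 in nano_high, from -0.017 to 0.19 in nano_low and from -0.14 to 0.21 in silica. The J-domain protein dnaj subfamily c member had an SD of log2 CPM of 0.0694 over the 20 libraries, from 951.4 to 1115.8 CPM.

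The more abundant subunit names of the cytosolic T-complex chaperonin had similar profiles over the libraries. Of its 10 names, 0 were called against control in any exposure by edgeR's test, with an unadjusted p under 0.05 for 2 in nano_high, beside 24.8% of all names, 6 in nano_low, beside 14.1%, and 8 in silica, beside 23.2%. In each exposure 9 of the 10 had a negative log2 fold change, the exception being subunit zeta/arp2_g658 with 0.15 in nano_high, 0.17 in nano_low and 0.16 in silica. The median was -0.13 in nano_high, -0.22 in nano_low and -0.24 in silica, all below the medians over all names given above. DESeq2 called subunit eta and t-complex protein/arp2_g4254 lower in nano_high and in nano_low, and subunits beta, eta, gamma and theta lower in silica.

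The 8 T-complex names over 100 CPM summed to 2358, 2714, 2281, 2743 and 2639 CPM in nano_high, 2861, 2103, 2414, 2256 and 2347 in nano_low, 2189, 2408, 2572, 2202 and 2185 in silica, and 2668, 2787, 2732, 2916 and 2924 in control. All silica libraries lay below all control libraries, as did 3 of the 5 nano_high libraries and 4 of the 5 nano_low libraries. The highest sums within nano_high (library 4), nano_low (library 1) and control (libraries 4 and 5) belonged to libraries with the lowest collagen sums, and silica had none of those 5. In the other 15 libraries the sum was 2281 to 2714 CPM in nano_high, 2103 to 2414 in nano_low, 2185 to 2572 in silica and 2668 to 2787 in control. With the first principal component in the model, edgeR's test called subunit eta and t-complex protein/arp2_g4254 lower in nano_high and 0 members in nano_low and in silica. The mean was 2547 ± 213 CPM in nano_high, 2396 ± 285 in nano_low, 2311 ± 173 in silica and 2806 ± 113 in control (SD, n = 5 each). Across the 20 libraries each of the 8 names had an SD of log2 CPM of 0.136 to 0.24, while its SD relative to the mean of the 8 was 0.0404 to 0.107. The 2 less abundant names were not set against that mean.

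**Figure D3:**
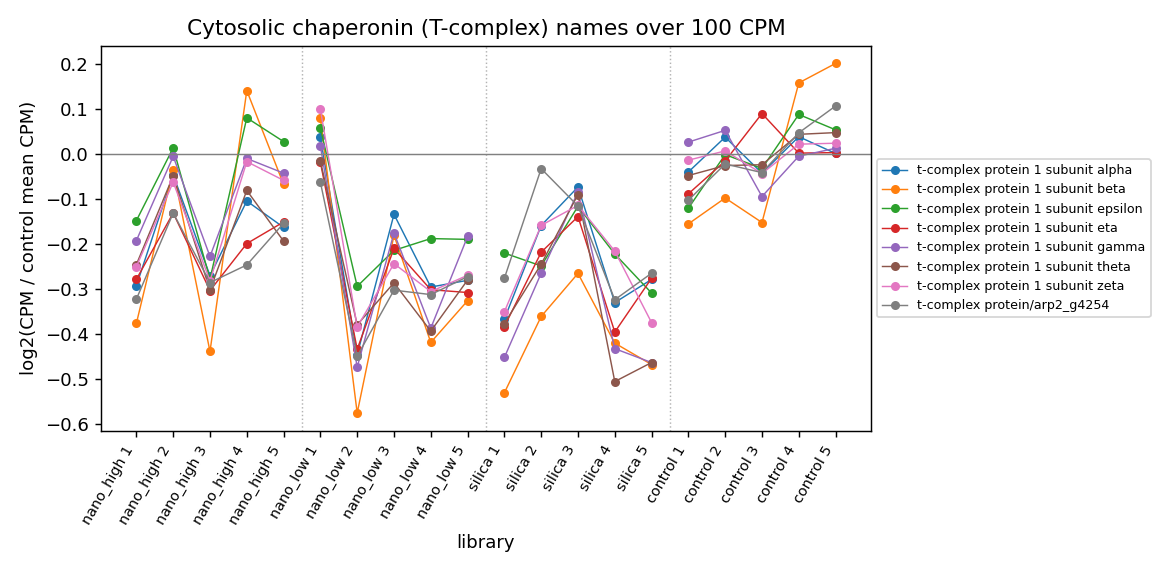
Log2 ratio of CPM to the control mean (vertical axis) for the 8 T-complex names over 100 CPM in each of the 20 libraries (horizontal axis). The lines of the 8 names run close together, nano_low 1 stands at control level while the other nano_low libraries lie below, and all silica points are under 0.

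Among single subunits, theta had 338.4, 387.9, 325.4, 379.3 and 350.8 CPM in nano_high, 309.0, 338.6, 376.9, 282.6 and 291.0 in silica, and 388.1, 394.1, 394.6, 413.5 and 414.6 in control. Both exposures lay wholly below control, although neither was called in edgeR's test (log2 fold change -0.17 in nano_high, adjusted p = 0.259, and -0.33 in silica, adjusted p = 0.082). Subunits without overlap were theta, eta and alpha with t-complex protein/arp2_g4254 in nano_high, and theta, eta, beta, alpha and zeta in silica. Subunit epsilon had 586.5 CPM in nano_low 1 and 459.7 to 494.8 in the other nano_low libraries. Without nano_low 1, subunits eta, theta and zeta and t-complex protein/arp2_g4254 were called lower in nano_low than in control, together with the proteasome assembly chaperone. Silica also had opsin and arrestin sums of 2517.3 to 2918.5 CPM against 3598.9 to 7937.1 in control, without overlap. The nano_high sums (1662.1 to 4106.6 CPM) and nano_low sums (2636.7 to 4615.5) were also below all control libraries, except in nano_high 4 and nano_low 1. Vitellogenin sums were 9671.9 to 27745.6 CPM in silica and 26956.6 to 79400.9 in control, with a small overlap. The part of these differences in the T-complex values was not tested.

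Peptidyl-prolyl cis-trans isomerase fkbp14 had the largest fold change of the called members and made up between 0.0962% and 1.68% of each library's counts. In humans FKBP14 is a prolyl isomerase of the endoplasmic reticulum that acts on collagen. It had 3666.2, 1197.6, 1142.4, 1070.4 and 1433.1 CPM in nano_high, 4735.0, 4624.8, 4736.0, 5393.5 and 4886.8 in nano_low, 1522.8, 3418.3, 16817.4, 3633.2 and 17421.9 in silica, and 3683.2, 9064.9, 15961.7, 8623.8 and 3105.2 in control. In nano_high, 4 libraries lay below all control libraries and nano_high 1 lay within the control range. The nano_low libraries stood close together, between the lowest and the highest control, while silica spread more widely than control at both ends.

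Fkbp14 averaged 1702 ± 1106 CPM in nano_high and 8088 ± 5183 in control, a log2 fold change of -2.25 ± 0.60 (SE), adjusted p = 0.0236 in edgeR's quasi-likelihood test. A nano_high library was higher than a control library in 1 of the 25 possible pairs. Leaving out 1 library at a time gave log2 fold changes from -2.75 to -1.85 and adjusted p-values from 0.014 to 0.0734, with the call lost without nano_high 2, nano_high 3, nano_high 5 or control 3. Nano_low averaged 4875 ± 304 CPM, a log2 fold change of -0.73 (95% interval -1.86 to 0.40), adjusted p = 0.581. Silica averaged 8563 ± 7857 CPM, a log2 fold change of 0.082 (-1.04 to 1.21), adjusted p = 0.936, and its sign turned in 4 of the 10 fits that left out 1 library.

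**Figure D4:**
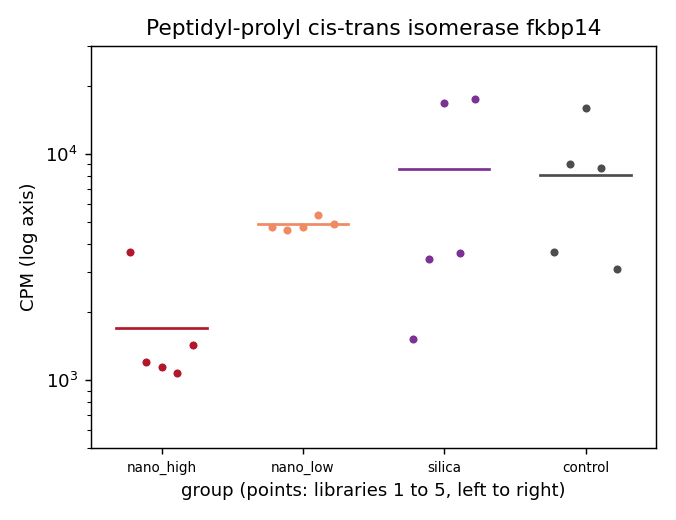
CPM of peptidyl-prolyl cis-trans isomerase fkbp14 (vertical log axis) in the 4 groups, with points for libraries 1 to 5 from left to right and lines for the arithmetic means. Of the nano_high libraries, 4 sit between 1070.4 and 1433.1 CPM, below every nano_low and control library.

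None of the other 5 FKBP-type names was called. Fkbp8, which in mammals sits on mitochondria and holds back cell death, had 44.7, 43.5, 43.1, 40.2 and 38.6 CPM in nano_high and 47.7, 47.0, 54.7, 49.3 and 47.0 in control. The 2 groups did not overlap, and the log2 fold change of -0.23 missed the threshold, adjusted p = 0.062 in edgeR's test, while DESeq2 called it, as did edgeR's test on counts thinned at random to the total of the smallest library.

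Peptidyl-prolyl cis-trans isomerase 1 had 6.33, 6.86, 5.42, 5.50 and 5.39 CPM in nano_high and 8.67, 9.0, 9.71, 7.83 and 10.3 in control. Every nano_high library lay below every control library. The log2 fold change was -0.62 ± 0.15 (SE), adjusted p = 0.0136 in edgeR's test. The call held in all 10 fits that left out 1 library, with adjusted p-values from 0.0179 to 0.0398, and in all 8 other settings. Nano_low, with 8.75, 6.83, 10.2, 8.53 and 5.76 CPM, and silica, with 8.84, 9.89, 7.87, 7.27 and 6.80 CPM, overlapped control.

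The other 13 tested prolyl isomerase names outside the FKBP type, most of them cyclophilins, were not called, with log2 fold changes against control from -0.29 to 0.58 in nano_high. Peptidyl-prolyl cis-trans isomerase f, the mitochondrial cyclophilin that in mammals opens the permeability transition pore, had 552.3 to 1185.0 CPM over all 20 libraries. Its log2 fold change was -0.13 in nano_high (adjusted p = 0.677 in edgeR's test), -0.27 in nano_low (0.486) and -0.45 in silica (0.15). The protein disulfide isomerase, which forms and rearranges disulfide bonds of secreted proteins, averaged 144 ± 23.0 CPM in nano_high, 141 ± 15.1 in nano_low, 155 ± 33.0 in silica and 170 ± 12.8 in control, and was not called.

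Among 7 regulators and partners of Hsp70 and Hsp90, 1 was called in nano_high against control, which is 14.3% beside 10.1% of all names. The bag family molecular chaperone regulator, of a family that releases nucleotide and substrate from Hsp70, had 52.3, 54.2, 53.9, 60.1 and 57.1 CPM in nano_high and 71.3, 61.5, 62.5, 71.3 and 75.7 in control. The groups did not overlap, and the log2 fold change was -0.30 ± 0.080 (SE), adjusted p = 0.0235 in edgeR's test. Nano_low, with 53.0 to 66.0 CPM, overlapped control at a log2 fold change of -0.20 (95% interval -0.36 to -0.041), and silica, with 55.9 to 70.5 CPM, at -0.13 (-0.28 to 0.031). Leaving out 1 library at a time ended the nano_high call in 5 of 10 fits, those without nano_high 1, 2 or 3 or control 4 or 5, where adjusted p reached 0.0649. The heat shock factors, which switch on heat shock genes, were 3 names with log2 fold changes from -0.072 to 0.33 in nano_high and adjusted p-values of 0.54 or more. The activator of 90 kda heat shock protein atpase, known as Aha1, had 56.9 to 73.1 CPM over all libraries.

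By wording alone, 16 names were sorted as chaperones that serve a single substrate or complex. They include cytochrome c oxidase copper chaperone and chaperone activity of bc1 complex, and whether each acts as a folding chaperone was not checked. Of the 16, 15 had negative log2 fold changes in nano_high, with a median of -0.23 against 0.018 over all names. Of all 7564 names tested, 3590 were negative there. Of the 16, 2 were called, both lower, which is 12.5% beside 10.1% of all names (4.89% lower). In nano_low 9 of the 16 were negative, with a median of -0.067, and in silica 10, with a median of -0.082. Over all names, 3688 were negative in nano_low and 3565 in silica. The proteasome assembly chaperone, one of the factors that build the core of the proteasome, had 9.94, 8.96, 9.39, 10.04 and 10.6 CPM in nano_high and 15.0, 14.1, 15.5, 12.7 and 13.8 in control, without overlap. Its log2 fold change was -0.54 ± 0.15 (SE), adjusted p = 0.0259 in edgeR's test, and it was called in all 8 other settings. Without nano_high 2, nano_high 3 or control 3 the call was lost, with adjusted p up to 0.0656. In nano_low it had 15.5 CPM in library 1 and 8.83 to 10.7 in the other 4, and in silica 16.0 CPM in library 3 and 10.1 to 11.3 in the other 4.

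Tubulin cofactors join alpha- and beta-tubulin into the dimer that builds microtubules, and the names of this series cover cofactors a to e. Tubulin-specific chaperone cofactor e protein had 36.3, 39.1, 37.7, 42.8 and 35.4 CPM in nano_high, 43.3, 42.1, 38.6, 37.0 and 35.6 in silica, and 46.2, 43.3, 43.8, 49.6 and 58.8 in control. Neither exposure overlapped control, silica reaching up to the lowest control library. The log2 fold change was -0.34 ± 0.11 (SE) in nano_high, adjusted p = 0.048, and -0.29 ± 0.11 in silica, adjusted p = 0.14, in edgeR's test. The nano_high call was lost in 8 of 10 fits that left out 1 library, all but those without nano_high 4 or control 2, with adjusted p up to 0.139. A separate name, tubulin-specific chaperone e, was not called in nano_high (log2 fold change -0.24, adjusted p = 0.178 in edgeR's test). Whether the 2 names stand for the same gene is not known, and reads that they share cannot be told apart here. Tubulin-specific chaperone d was listed at 0 in silica 5 and had 7.74 to 22.1 CPM in the other 19 libraries.

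The remaining members were low or of unknown family, and none of them was called against control by edgeR's test. Of the 5 tested names that give no family, tribolium castaneum heat shock protein/arp2_g229 had 320.2 to 486.0 CPM over all libraries. Heat shock kda protein cognate/arp2_g44 had the largest positive log2 fold change of the members in nano_high, 1.62 with adjusted p = 0.0869, at 0.319 to 0.483 CPM in nano_high and 0 to 0.401 in control. The 60 kda heat shock protein/arp2_g945, which stands far to the right in silica with a log2 fold change of 2.07, never exceeded 0.275 CPM. The c1galt1-specific chaperone, which in mammals helps a glycosyltransferase to fold, was listed at 0 in silica 3 and 5 and reached 2.46 CPM in nano_low 3.

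**Figure D5:**
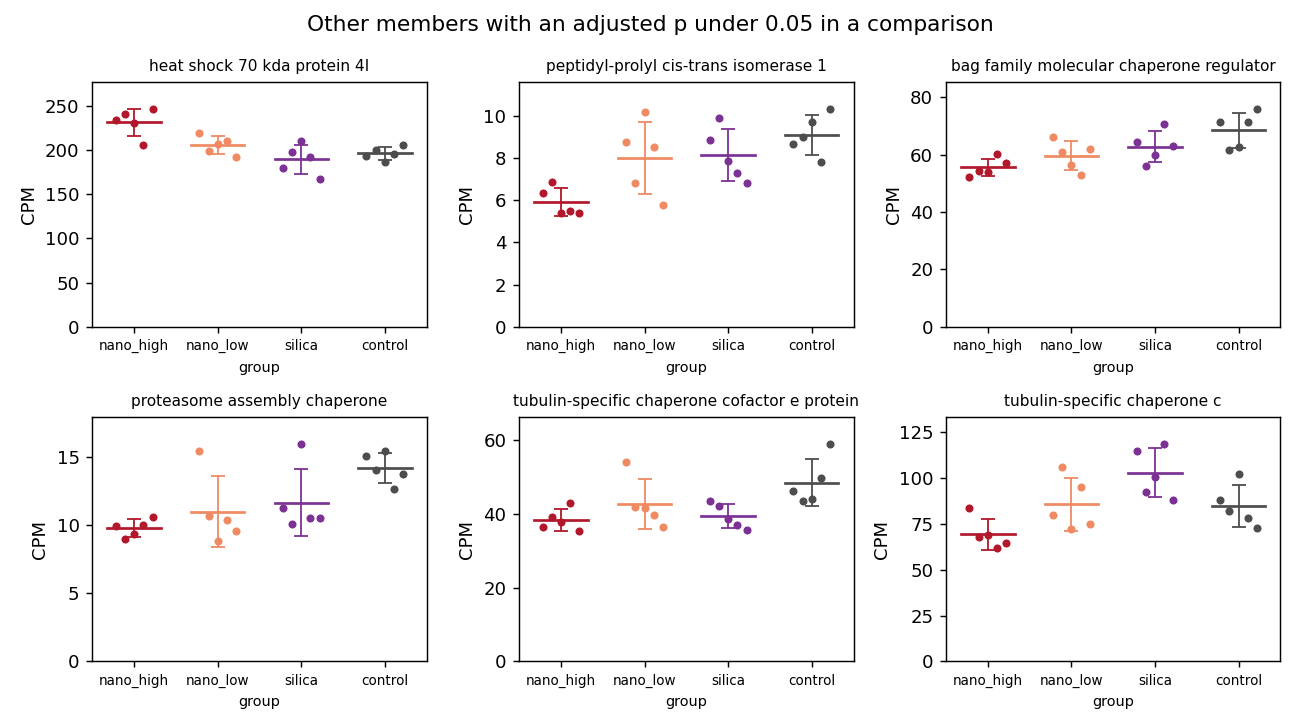
CPM (vertical axes, from 0) in the 4 groups of the 6 members other than fkbp14 that were called in a comparison, with points for libraries, lines for means and bars for SD (n = 5). Nano_high lies above control for heat shock 70 kda protein 4l, below control for the next 4 members, and below silica for tubulin-specific chaperone c.

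Between nano_high and nano_low, which received the same copolymer at different concentrations, 0 members were called by edgeR's quasi-likelihood test, as were 0.0% of all names. An unadjusted p under 0.05 was reached by 6 members (8.11%), beside 6.76% of all names, and DESeq2 called 0 members, beside 0.013% of the names it tested. The 2 groups did not overlap for 2 members, beside 1.18% of all names. Fkbp14 was lower in each nano_high library than in any nano_low library, with a log2 fold change of -1.52 (95% interval -2.67 to -0.37), unadjusted p = 0.0182 and adjusted p = 0.662. Peptidyl-prolyl cis-trans isomerase, mitochondrial had 96.6, 96.8, 108.1, 110.0 and 118.1 CPM in nano_high and 80.2, 85.2, 86.0, 92.0 and 81.4 in nano_low, a log2 fold change of 0.32, adjusted p = 0.557.

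Against silica at the same stated number of particles, 3 members were called in nano_high, 1 higher and 2 lower, which is 4.05% of the members beside 5.35% of all names (2.37% higher and 2.99% lower). Fkbp14 was lower in nano_high, with a log2 fold change of -2.33 ± 0.60 (SE), adjusted p = 0.0341 in edgeR's test, although silica 1, 2 and 4 (1522.8, 3418.3 and 3633.2 CPM) lay below nano_high 1. Heat shock 70 kda protein 4l was higher, with a log2 fold change of 0.29 ± 0.073, adjusted p = 0.0313, and the groups overlapped at nano_high 4 (206.0 CPM) and silica 3 (210.6 CPM). Both calls were lost when only the 2 groups compared were fitted, and that of 4l also with thinned counts. Leaving out 1 library ended each of these 2 calls in 5 of 10 fits. For fkbp14 these were the fits without nano_high 2, 4 or 5 or silica 3 or 5, and for 4l those without nano_high 2 or 5 or silica 1, 4 or 5.

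Tubulin-specific chaperone c, the cofactor that triggers release of the finished tubulin dimer, had 83.7, 67.9, 68.7, 61.9 and 64.4 CPM in nano_high and 114.9, 92.6, 100.3, 118.4 and 87.9 in silica. Every nano_high library was below every silica library, with a log2 fold change of -0.57 ± 0.13 (SE), adjusted p = 0.0194 in edgeR's test. Nano_low, with 80.0, 106.1, 72.1, 95.2 and 74.9 CPM, and control, with 88.1, 81.9, 102.3, 78.4 and 72.5 CPM, overlapped nano_high and silica. Without nano_high 4, nano_high 5, silica 1 or silica 4 the call was lost, with adjusted p up to 0.062, as it was with only the 2 groups compared. It was also the member called when any difference among the 4 groups was tested (1 member, 1.35%, adjusted p = 0.0483, beside 5.68% of all names). The groups of nano_high and silica did not overlap for 5 members, 2 higher and 3 lower, beside 7.79% of all names (3.52% higher and 4.27% lower).

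Folding genes outside the name rule were taken from 9 lists of 47 names, of which 46 were tested. They covered lectin chaperones, hypoxia up-regulated protein with nucleotide exchange factor sil1, oxidative folding partners and the unfolded protein response. The other lists were endoplasmic reticulum associated degradation, prefoldin, other Hsp70 and Hsp90 partners, mitochondrial proteases and torsins. In nano_high against control 3 of the 46 names were called, all lower, which is 6.52% beside 10.1% of all names. In nano_low and silica 0 were called by edgeR's test, with an unadjusted p under 0.05 for 6 in nano_low (13.0%, beside 14.1% of all names) and 10 in silica (21.7%, beside 23.2%).

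Prefoldin carries unfolded actin and tubulin to the T-complex chaperonin. Of the 4 names listed under prefoldin by wording, 2 were called lower in nano_high, beside 4.89% of all names. Prefoldin subunit/arp2_g5259 averaged 67.7 ± 7.86 CPM in nano_high and 112 ± 6.73 in control (log2 fold change -0.72, adjusted p = 0.00916), and prefoldin subunit/arp2_g1910 averaged 32.6 ± 3.73 CPM in nano_high and 43.2 ± 3.30 in control (log2 fold change -0.41, adjusted p = 0.0184). Neither name overlapped between nano_high and control, and the silica libraries also lay wholly below control for both. Arp2_g5259 had a log2 fold change of -0.50 in nano_low (adjusted p = 0.158 in edgeR's test) and -0.30 in silica (0.251). For arp2_g1910 the values were -0.35 in nano_low (0.128) and -0.32 in silica (0.116). The name prefoldin subunit without a tag averaged 213 ± 10.8 CPM in nano_high and 226 ± 21.5 in control and was not called. Unconventional prefoldin rpb5 interactor, also on the list, averaged 13.4 ± 3.24 CPM in nano_high and 11.9 ± 1.21 in control and was not called. The thioredoxin domain-containing protein, of a fold that handles disulfides, averaged 315 ± 29.3 CPM in nano_high and 396 ± 27.1 in control (log2 fold change -0.33, adjusted p = 0.0103), also without overlap between these groups.

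Apart from the oxidative folding partners, which hold the thioredoxin domain-containing protein, the endoplasmic reticulum lists gave no call against control by edgeR's test. Calreticulin, which holds glycoproteins during folding, averaged 1186 ± 441 CPM in nano_high, 1193 ± 255 in nano_low, 1188 ± 163 in silica and 976 ± 332 in control. Its adjusted p in nano_high was 0.533 in edgeR's test. Hypoxia up-regulated protein, an endoplasmic reticulum chaperone of the Hsp110 type, averaged 159 ± 31.1 CPM in nano_high and 120 ± 22.8 in control, with adjusted p = 0.098 in edgeR's test. Nano_low averaged 160 ± 24.8 CPM (adjusted p = 0.248) and silica 149 ± 19.4 (0.229). Nucleotide exchange factor sil1, of the same list, had log2 fold changes of -0.40 in nano_high, -0.44 in nano_low and -0.77 in silica. Its silica libraries lay wholly below control, with adjusted p = 0.0723 in edgeR's test. The unfolded protein response list had 0 of 4 called in each exposure, with an unadjusted p under 0.05 for 0 in nano_high, 0 in nano_low and 1 in silica. The degradation factor transitional endoplasmic reticulum atpase ter94 averaged 597 ± 34.3 CPM in nano_high and 597 ± 17.6 in control.

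In nano_high against silica, 4 of these 46 names were called, which is 8.7% beside 5.35% of all names. Nuclear migration protein nudc, a partner of Hsp90 and dynein, averaged 34.7 ± 6.42 CPM in nano_high and 22.1 ± 3.87 in silica (log2 fold change 0.65, adjusted p = 0.0233). Prostaglandin e synthase 3, known as the Hsp90 co-chaperone p23, averaged 250 ± 31.7 CPM in nano_high and 188 ± 10.2 in silica (log2 fold change 0.41, adjusted p = 0.0495). Here too the control mean lay between them, at 211 ± 20.0 CPM. Udp-glucose:glycoprotein glucosyltransferase, which senses misfolded glycoproteins, was also higher in nano_high than in silica (log2 fold change 0.31, adjusted p = 0.0369). None of these higher names was called against control in nano_high or in silica by edgeR's test. How the calls from the lists held under other settings or without single libraries is not given here. The thioredoxin domain-containing protein was lower, at 315 ± 29.3 CPM in nano_high and 404 ± 10.4 in silica (log2 fold change -0.36, adjusted p = 0.0167).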

How the data were processed

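Whole-animal RNA was poly-A selected and made into stranded libraries, per the labels' protocols. Quantification used Salmon 0.12.0, with R 3.4.3, per the submitters' processing notes. The reference and annotation were not given in the sources used here. Values as deposited are estimated counts (expected counts) for 7784 names in 20 columns, in a table the authors call normalized. They were treated as counts not scaled to a common depth because library totals differ 12.1-fold, and scaling within a library, which the count tests would not allow for, was not tested. The 7564 names that reached a deposited value of 1 in 5 or more libraries were rounded and tested, and 220 were not tested. Counts were scaled by TMM (factors 0.898 to 1.14) and fitted with 1 mean per group over all 20 libraries in edgeR 4.0.16 (R 4.3.3), with a two-sided quasi-likelihood test at 0.05. SE is the absolute log2 fold change over the square root of F, and 95% intervals are 1.96 SE. Spread was taken on log2 CPM with a prior count of 2. DESeq2 1.42.0, other scalings and filters, thinned counts, a replicate block, the first principal component and leaving out libraries were alternatives. Tables and figures used Python 3.11.15, pandas 2.3.3, numpy 2.4.6 and matplotlib 3.10.9.

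None of the 76 members matched a symbol of the reference table, so no positions, lengths or sequences are given. Names are descriptions, and copies under 1 description, or names that share reads, cannot be told apart. Roles and lists were sorted by wording. The members and lists were chosen with earlier results of these data known. Named were the members called in any comparison, fkbp14, heat shock 70 kda protein 4l, the member with most counts per role, the 5 most variable members, and the names called from the lists. The name with most counts was also given for each list except the unfolded protein response, mitochondrial proteases and torsins. Others were named after their values were seen. None of 40 replicate pairs was identical. On simulated counts for nano_high against control (7558 names), 87% of 100 names changed by 1 log2 unit and 94% of 100 changed by 2 were recovered, with 3.72% false among those called. Only names above a set mean CPM were changed, and counts were drawn independently for each name, without the first principal component. Changes under 1 log2 unit, as in all called members but fkbp14, were not simulated.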

Additional observations from a re-analysis of the deposited data

Results flagged for a closer look

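Single libraries stood apart from the rest of their group in 4 of 80 groups examined, 4 groups for each of the 20 named members. The rule would flag about 1 in 20 groups of independent, normally distributed values. The named members share libraries and were partly chosen by their spread or calls, so that rate cannot tell whether these flags arose by chance. Fkbp14 had 3666 CPM in nano_high 1 against 1070.4 to 1433.1 in the other 4 nano_high libraries. The proteasome assembly chaperone had 15.5 CPM in nano_low 1 against 8.83 to 10.7 in the other nano_low libraries, and 16.0 CPM in silica 3 against 10.1 to 11.3 in the other silica libraries. T-complex protein 1 subunit epsilon had 586.5 CPM in nano_low 1 against 459.7 to 494.8 in the others.

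The effect against the shared controls differed between nano_high and silica for 3 members, by the test of nano_high against silica itself. The difference in log2 fold change was 0.29 for heat shock 70 kda protein 4l (adjusted p = 0.0313), -2.33 for fkbp14 (adjusted p = 0.0341) and -0.57 for tubulin-specific chaperone c (adjusted p = 0.0194), all from edgeR's quasi-likelihood test.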

How the results depend on the processing

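Counts depended on the model. Names and members called in nano_high against control were 761 and 6, and became 1748 and 15 with the first principal component in the model, 372 and 3 with only the 2 groups compared, 1151 and 9 with DESeq2, and 413 to 967 and 1 to 8 when 1 library was left out. In nano_low against control, 47 names became 16 with thinned counts, 187 with the component, 3 with only the 2 groups, 227 with DESeq2 and 8 to 236 leaving out 1 library, and 0 members became 2 with DESeq2 and 0 to 5 leaving out 1 library. In silica, 53 names became 0 with the component, 401 with only the 2 groups, 396 with DESeq2 and 0 to 132 leaving out 1 library, and 0 members became 4 with only the 2 groups and 5 with DESeq2, and stayed at 0 in each of the 10 fits leaving out 1 library. DESeq2 called 1 name in nano_high against nano_low. In nano_high against silica, 405 names and 3 members became 652 and 7 with the component, 36 and 0 with only the 2 groups, 917 and 8 with DESeq2, 234 names with thinned counts, and 77 to 648 and 0 to 4 leaving out 1 library. The split of 179 higher and 226 lower there became 218 and 203 under RLE scaling and 512 and 405 with DESeq2. For any difference, 430 names and 1 member became 1097 and 8 with the component, 197 to 738 and 0 to 10 leaving out 1 library, and 0 members under RLE scaling, without a filter or with thinned counts. The causes were not tested.

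The replicate number as a block gave 3 members in nano_high against control, 13 names in nano_low, 0 names in silica, 267 names and 1 member in nano_high against silica, and 224 names and 0 members for any difference. With the block, the calls of fkbp14, 4l and tubulin-specific chaperone cofactor e protein against control were lost. Those of fkbp14 and 4l against silica were lost too. No clear pairing by number was seen: deviations of same-numbered libraries correlated at -0.636 to 0.65 (30 pairs, 7 over 0.1, median 0.01305), and 3 of 20 libraries correlated best with their own number. These correlations also carry the first principal component, so a weaker pairing could go unseen.

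The log2 fold change of fkbp14 in silica against control, 0.082, turned negative with the block (-0.084), with the component (-0.077) and without control 1 (-0.10), control 5 (-0.12), silica 3 (-0.32) or silica 5 (-0.35), and ran from -0.35 to 0.48 leaving out 1 library. Under the 8 settings other than leaving out a library, the calls against control in nano_high were lost in 4 for heat shock 70 kda protein 4l, 4 for tubulin-specific chaperone cofactor e protein, 1 for fkbp14 and 1 for the bag family regulator, and in none for peptidyl-prolyl cis-trans isomerase 1 or the proteasome assembly chaperone. Those against silica were lost in 3 for 4l, 2 for fkbp14 and 1 for tubulin-specific chaperone c. No direction of these calls turned.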
